A study of Mus musculus with 6 samples.

Results

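Kruppel-like factors (Klf) are transcription factors that bind GC-rich and CACCC-type DNA through zinc fingers at their C-terminus. The 10 genes described here, Klf2, Klf3, Klf4, Klf6, Klf7, Klf9, Klf10, Klf11, Klf12 and Klf13, were chosen by name, with the erythroid factor Klf1 left out, and with earlier results of the same table known. All 10 were found, of 17 Klf genes in the table, and all were among the 12008 genes that passed the filter on low values. The list follows no limit on level, since Klf16, Klf8 and Klf5, which are not on it, stood above Klf2 and Klf4. Levels and genotype differences of the 10 genes are therefore given as a description of these libraries, and the adjusted p beside a gene says where it stood in a fit over all genes.

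The cells were LT-HSC, the long-term stem cells of blood, taken from bone marrow on a C57BL/6 background, sorted as lineage-depleted LSK cells (Sca-1+ Kit+) that were CD34-, CD150+, CD48- and Flk2-. The mutant cells came from mice labelled IPTKB-/-, here Itpkb-/-, homozygous for the ENU-induced Ms T-less allele of Itpkb, a kinase that phosphorylates inositol trisphosphate. They were compared with cells of wild-type (WT) littermates, with 3 libraries of each genotype. Each library held a pool of 4 age-matched mice, and the labels give neither the age nor a Cre driver, transgene or treatment. The sources name the purpose only as a comparison of LT-HSC of the 2 genotypes.

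Klf proteins fall into groups by the partners of their N-terminal parts. Klf3, Klf8 and Klf12 bind the corepressor CtBP and mainly repress transcription. Klf9, Klf10, Klf11, Klf13, Klf14 and Klf16 recruit the corepressor Sin3A. Klf1, Klf2, Klf4, Klf5, Klf6 and Klf7 act largely as activators. In blood cells Klf1 drives red cell genes, Klf2 restrains T cell growth and guides T cell traffic, and Klf4 acts in monocyte formation.

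The 6 libraries held 4024203 to 7470329 reads recovered from the table, and 3 reads, taken as the floor of detection, were worth 0.393 to 0.746 normalized CPM (counts per fixed number of reads, after scaling of the libraries). Itpkb stood at 10.2, 13.99 and 18.2 normalized CPM in Itpkb-/- libraries, against 22.1, 23.6 and 25.1 in WT libraries, which did not reach the limit of the test (limma, adjusted p = 0.172) but passed with same-numbered libraries as blocks (limma, adjusted p = 0.0541) and without Itpkb-/- replicate 3 (limma, adjusted p = 0.119). A chemically induced allele need not remove the transcript, so this level checks the labels only in part. All 15 markers of HSC passed the filter on low values. The summed granulocyte markers stood apart in Itpkb-/- library 2, at 18930 normalized CPM, against 6861 and 981 in the other Itpkb-/- libraries and 752 to 3925 in WT libraries.

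Of the 10 genes, 1 changed between the genotypes: Klf12, a CtBP-binding repressor first described as a repressor of the gene for AP-2 alpha, fell in Itpkb-/- LT-HSC (limma on log2 values, adjusted p of at most 0.15 over all 12008 genes tested). The same fit called 5.5% of all genes in either direction and 3.24% as lower. The other 9 genes did not pass. With libraries of the same number paired, 4 of the 10 passed, against 18.1% of all genes: Klf10 and Klf12 as lower, Klf11 and Klf13 as higher. The genotypes did not overlap for Klf12 alone among the 10, against 21.3% of all genes tested. Among the 10, 5 log2 differences were positive and 5 negative, with a median of -0.04, where all genes tested had a median of 0.00. Because the list was made with these results known, nothing is read from its counts.

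**Figure D1:**
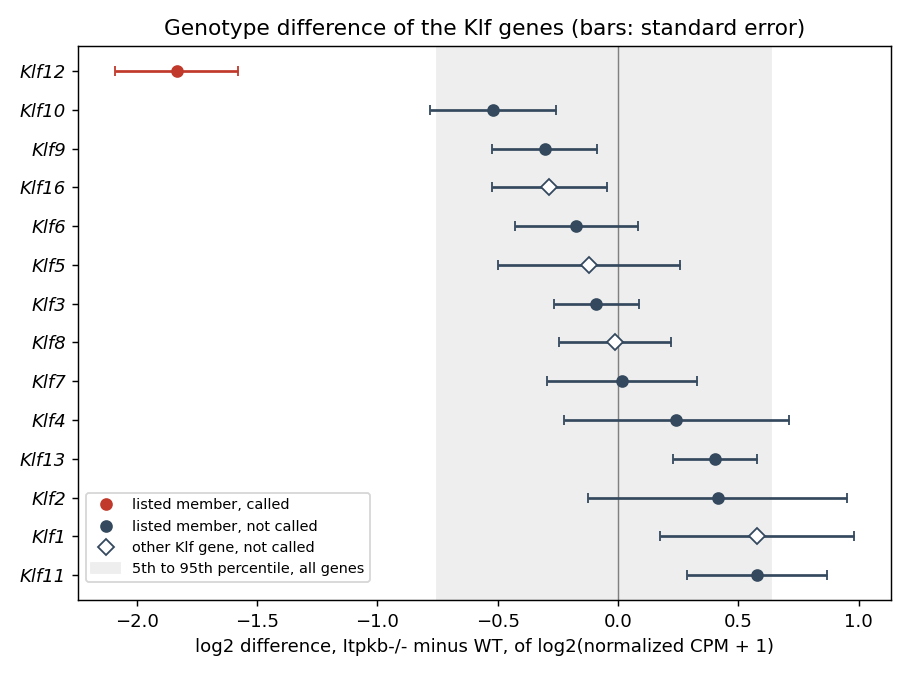
Log2 differences (Itpkb-/- minus WT, of log2(normalized CPM + 1)) of the 14 Klf genes tested, with standard errors from limma as bars. Circles are the 10 listed genes, open diamonds the other Klf genes, red marks the gene called, and the grey band spans the 5th to 95th percentile of all genes tested, from -0.75 to 0.64. Klf12 lies outside the band at -1.84, and the other 13 means lie within it.

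Klf12 stood at 13.1, 6.53 and 10.5 normalized CPM in Itpkb-/- libraries 1 to 3, from 60, 42 and 80 reads. It was at 39.3, 36.3 and 35.7 in WT libraries 1 to 3, from 158, 243 and 192 reads. All Itpkb-/- libraries lay below all WT libraries, and the highest Itpkb-/- value was well under the lowest WT value. The means were 10.03 ± 3.30 in Itpkb-/- cells and 37.1 ± 1.90 in WT cells (SD, n = 3 each), a level 3.70-fold lower, with a log2 difference of -1.84 (SE 0.25, limma adjusted p = 0.00737). By this p-value Klf12 ranked 27 among 12008 genes, and by size 28 among decreases. In bulk RNA, fewer cells that carry a transcript and less of it per cell cannot be told apart.

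The fall of Klf12 was as clear within pairs of same-numbered libraries, at log2 differences of -1.52, -2.31 and -1.68 for pairs 1, 2 and 3, and its adjusted p with these blocks was 2.40e-04 (limma). It passed the limit of 0.15 in all 17 alternative fits, with log2 differences from -2.03 to -1.58, and the highest adjusted p, 0.0670, came without WT replicate 3. Without Itpkb-/- library 2, which held the highest granulocyte signal, the log2 difference was -1.58 (limma, adjusted p = 0.00936), and a fit with the mean granulocyte signal as covariate gave -1.73 (limma, adjusted p = 0.0374). Applied to the recovered reads, the quasi-likelihood test of edgeR gave -1.90 (adjusted p = 0.00283).

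Klf12 lies on the minus strand of chromosome 14, at chr14:99870632-100284679 (GENCODE M21, build mm10), and its exons overlap no exon of another annotated gene. The RefSeq promoter table (build GRCm38.p6) held 9 of the 10 genes, all but Klf10. The 250 bases before the annotated start are printed for Klf12, the gene that fell, for Klf3, its relative in the CtBP group, and for Klf11, which had the highest log2 difference of the 10. The RefSeq starts used for Klf3 and Klf11 lie a short way inside the genes as GENCODE draws them. That of Klf12, next to base 100149797, lies far inside its gene, which GENCODE begins at base 100284679 on the minus strand. The Klf12 window is thus not the sequence before the GENCODE start, and it is not of the same kind as the windows of Klf3 and Klf11. Capitals mark CACCC and GGGCGG and their reverse complements GGGTG and CCGCCC, sequences of the kind that Klf and Sp proteins bind. The Klf12 window lies at chr14:100149797-100150046 on the minus strand, that of Klf3 at chr5:64803271-64803520 on the plus strand and that of Klf11 at chr12:24651121-24651370 on the plus strand.
Klf12: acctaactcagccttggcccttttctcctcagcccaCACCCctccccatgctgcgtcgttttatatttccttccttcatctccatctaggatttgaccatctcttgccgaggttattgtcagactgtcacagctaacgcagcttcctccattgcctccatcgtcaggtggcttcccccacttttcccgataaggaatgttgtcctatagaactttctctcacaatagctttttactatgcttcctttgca
Klf3: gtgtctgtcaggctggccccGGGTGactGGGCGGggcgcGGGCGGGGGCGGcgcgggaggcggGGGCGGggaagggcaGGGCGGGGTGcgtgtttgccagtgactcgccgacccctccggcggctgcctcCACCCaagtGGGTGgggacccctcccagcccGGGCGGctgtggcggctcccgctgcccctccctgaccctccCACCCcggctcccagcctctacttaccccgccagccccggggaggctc
Klf11: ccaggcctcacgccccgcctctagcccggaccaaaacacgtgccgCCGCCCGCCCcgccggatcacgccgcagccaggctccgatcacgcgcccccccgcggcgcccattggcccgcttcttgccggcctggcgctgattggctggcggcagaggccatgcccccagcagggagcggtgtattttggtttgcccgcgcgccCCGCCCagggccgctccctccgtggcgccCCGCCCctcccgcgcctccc

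The Klf12 window, which lies far inside the gene, held 1 CACCC and 0 GGGCGG, with a GC content of 48.0%. The Klf3 window held 5 CACCC and 6 GGGCGG, of which 1 pair shares a base, with a GC content of 78.4%. The Klf11 window held 0 CACCC and 4 GGGCGG, of which 1 pair overlaps, with a GC content of 76.8%. A CACCC was found in 6 of the 9 windows and in 52.0% of 32851 windows of this length in the table. A GGGCGG was found in 7 of the 9 windows and in 32.7% of all. The Klf12 and Klf9 windows were the 2 without GGGCGG among the 9. Matches of this kind describe letters and not bound sites.

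**Figure D2:**
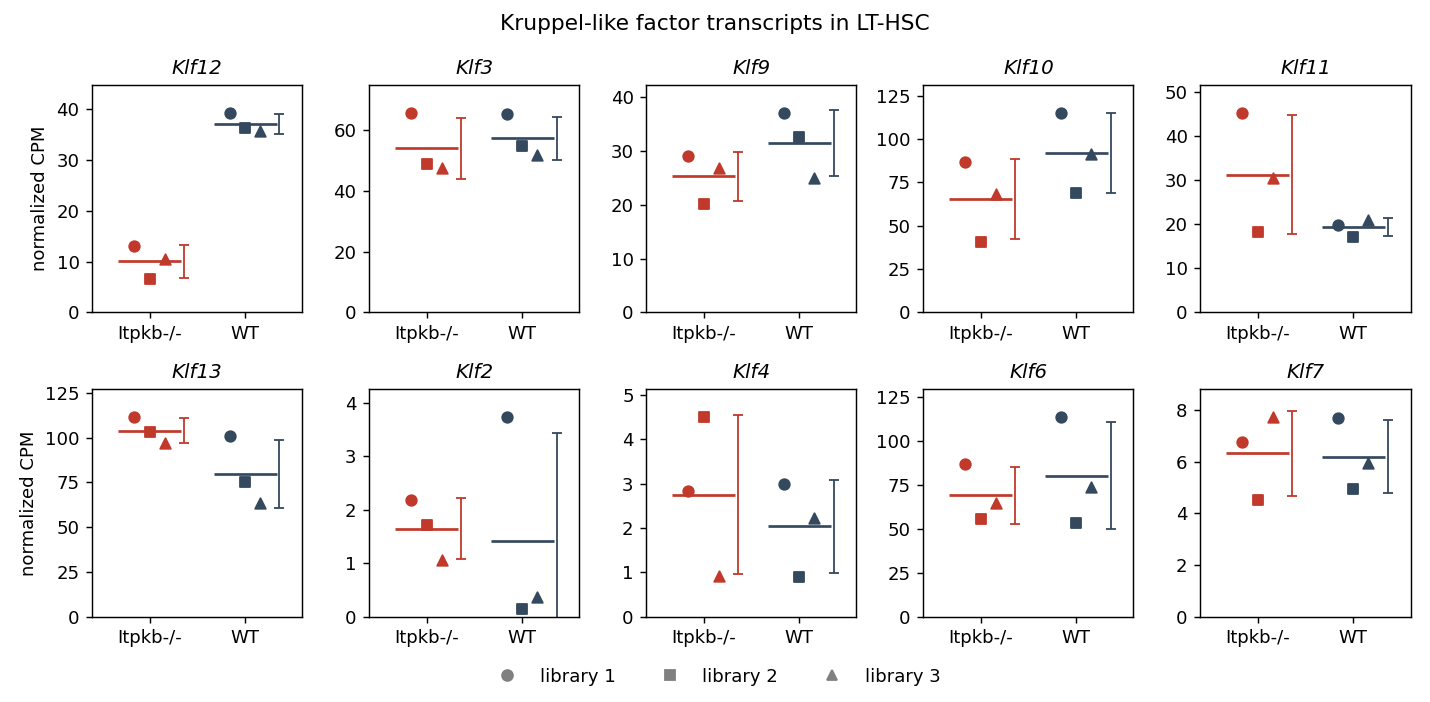
Normalized CPM (vertical axes, each starting at 0) of the 10 genes in the Itpkb-/- libraries (red, left) and the WT libraries (dark, right); symbols give the library number, horizontal lines the mean and bars the SD. The genotypes are apart for Klf12, between 6.53 and 13.1 in Itpkb-/- libraries and between 35.7 and 39.3 in WT libraries, and overlap for the other 9.

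Klf3, which in mouse red cells is driven by Klf1 and represses other Klf1 targets, stood at 65.6, 48.6 and 47.6 normalized CPM in Itpkb-/- libraries, against 65.2, 54.6 and 51.8 in WT libraries. Both genotypes had their highest value in library 1, and the groups overlapped. The means were 53.9 ± 10.1 in Itpkb-/- cells and 57.2 ± 7.07 in WT cells (SD, n = 3 each), with a log2 difference of -0.09 (SE 0.18, limma adjusted p = 0.865). Klf8, the other gene of the CtBP group, is not on the list and was at 13.8 ± 2.17 in Itpkb-/- cells and 13.9 ± 0.814 in WT cells (SD, n = 3 each), a log2 difference of -0.01. Within the CtBP group the test was thus passed by Klf12 and by neither Klf3 nor Klf8; the differences between these genes were not tested. Exons of Klf3 overlap those of Gm20033 on the opposite strand, and the library kit does not mark strand, so reads of the overlap cannot be divided.

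The genes of the Sin3 group were spread on both sides. Klf10, also known as TIEG1 and induced by TGF-beta, stood at 86.7, 40.9 and 68.3 normalized CPM in Itpkb-/- libraries 1 to 3. In WT libraries 1 to 3 it was at 115.1, 68.9 and 91.4. The groups overlapped, but each Itpkb-/- library lay below the WT library of its number, by -0.41, -0.74 and -0.42 on the log2 scale. The means were 65.3 ± 23.1 in Itpkb-/- cells and 91.8 ± 23.1 in WT cells (SD, n = 3 each). The log2 difference was -0.52 (SE 0.26, limma adjusted p = 0.377), and with the pairs as blocks it passed (SE 0.13, limma adjusted p = 0.0226).

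Klf11, also known as TIEG2 and the closest relative of Klf10, stood at 45.3, 18.2 and 30.4 normalized CPM in Itpkb-/- libraries, against 19.9, 17.2 and 21.0 in WT libraries. Itpkb-/- libraries 1 and 3 lay above every WT library, and Itpkb-/- library 2 lay among them. The means were 31.3 ± 13.6 in Itpkb-/- cells and 19.4 ± 1.98 in WT cells (SD, n = 3 each), with a log2 difference of 0.58 (SE 0.29, limma adjusted p = 0.375). With the pairs as blocks it passed (limma adjusted p = 0.126). The differences by pair were 1.15, 0.08 and 0.51, the largest of them in pair 1.

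Klf13, known in T cells as a factor for the chemokine gene Ccl5, stood at 111.5, 103.3 and 97.1 normalized CPM in Itpkb-/- libraries, against 100.7, 75.0 and 63.5 in WT libraries. It was higher in all 3 pairs, by 0.15, 0.46 and 0.61 on the log2 scale, although WT library 1 lay above Itpkb-/- library 3. The means were 104.0 ± 7.23 in Itpkb-/- cells and 79.7 ± 19.1 in WT cells (SD, n = 3 each), with a log2 difference of 0.40 (SE 0.17, limma adjusted p = 0.298). It passed with the pairs as blocks (limma adjusted p = 0.0607) and without both libraries numbered 1 (limma adjusted p = 0.134). The fit without those libraries was added after the values had been seen.

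Klf9, induced by glucocorticoid and thyroid hormones, stood at 29.0, 20.2 and 26.7 normalized CPM in Itpkb-/- libraries, against 37.1, 32.6 and 24.9 in WT libraries. The groups overlapped through WT library 3, the lowest of the WT libraries. The log2 difference was -0.30 (SE 0.22, limma adjusted p = 0.561). Klf16, which belongs to the same group and is not on the list, was at 19.7 ± 5.11 in Itpkb-/- cells and 23.9 ± 3.77 in WT cells (SD, n = 3 each), with a log2 difference of -0.29 (limma adjusted p = 0.627). Klf14 had no read in any library.

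**Figure D3:**
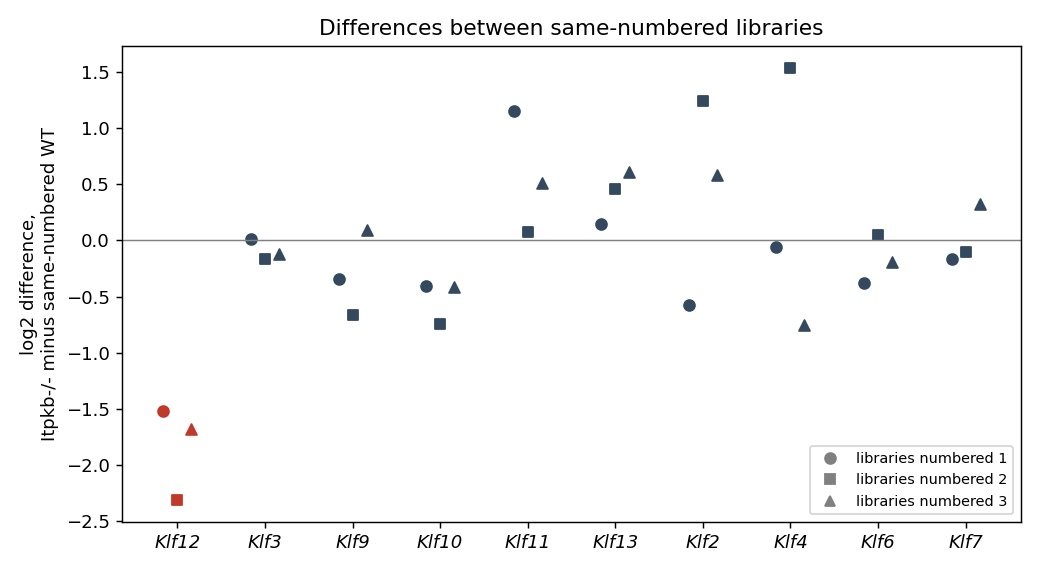
Log2 difference (vertical axis, Itpkb-/- minus WT, of log2(normalized CPM + 1)) of each of the 10 genes between libraries of the same number, with a symbol for each number. The 3 points of Klf12 lie between -2.31 and -1.52, those of Klf10 are all below 0, those of Klf11 and Klf13 are all above 0, and the other 6 genes have points on both sides.

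Among the activators, Klf6, an early-response gene of many tissues, stood at 87.1, 55.3 and 64.5 normalized CPM in Itpkb-/- libraries, against 113.6, 53.5 and 73.7 in WT libraries. The WT libraries enclosed all Itpkb-/- libraries. The log2 difference was -0.17 (SE 0.26, limma adjusted p = 0.810), and without WT replicate 1 it was 0.11. Klf7, a factor known from neurons, was at 6.75, 4.51 and 7.73 in Itpkb-/- libraries and at 7.71, 4.93 and 5.96 in WT libraries, from 29 to 59 reads. Its log2 difference was 0.02 (SE 0.31, limma adjusted p = 0.986). Exons of Klf7 overlap those of Gm13748 and Gm26649 on the opposite strand.

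Klf2 and Klf4, the factors of quiescent T cells and of endothelium under flow, had few reads. Only Klf2 in WT libraries 2 and 3 lay under the floor of 3 reads. Klf2 had 10, 11 and 8 reads in Itpkb-/- libraries and 15, 1 and 2 reads in WT libraries, or 2.18, 1.71 and 1.05 against 3.73, 0.149 and 0.372 normalized CPM. WT library 1 was the highest of the 6 and the other WT libraries, at or under 2 reads, the lowest. The exact Poisson 95% interval ran from 1.04 to 4.01 normalized CPM in Itpkb-/- library 1 and from 2.09 to 6.15 in WT library 1, and it covers counting error only. In WT libraries 2 and 3 it ended at 0.833 and 1.34, below the interval of WT library 1. The log2 difference of Klf2 was 0.41 (SE 0.54, limma adjusted p = 0.777). Klf2 reached the filter of 1 normalized CPM in all Itpkb-/- libraries and in WT library 1 alone among WT libraries.

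Klf4 had 13, 29 and 7 reads in Itpkb-/- libraries and 12, 6 and 12 reads in WT libraries. That is 2.83, 4.51 and 0.917 normalized CPM in Itpkb-/- cells and 2.98, 0.897 and 2.23 in WT cells. The highest value was that of Itpkb-/- library 2, the library with the highest granulocyte signal. The log2 difference was 0.24 (SE 0.47, limma adjusted p = 0.865), and it was -0.10 without that library. Its Poisson intervals did not meet between Itpkb-/- library 2, at 3.02 to 6.47 normalized CPM, and Itpkb-/- library 3, at 0.369 to 1.89. Neither Klf2 nor Klf4 passed, with low counts and with a spread within a genotype beyond counting error.

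Scaled by the length of all annotated exons of each gene, the 10 genes spanned more than an order of magnitude in both genotypes. In Itpkb-/- cells Klf6, Klf10 and Klf13 led at 15.7, 15.6 and 13.8 normalized CPM per kb of exon, followed by Klf11 at 7.21, Klf9 at 5.25 and Klf3 at 4.80. Klf12 came next at 1.44, with Klf4 at 0.903, Klf2 at 0.891 and Klf7 at 0.779 at the bottom. In WT cells Klf10 led at 21.97 normalized CPM per kb, before Klf6 at 18.3, Klf13 at 10.6 and Klf9 at 6.55. Klf12 at 5.31, Klf3 at 5.08 and Klf11 at 4.46 formed the middle, above Klf2 at 0.767, Klf7 at 0.762 and Klf4 at 0.669.

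In Itpkb-/- cells the ranges of neighbours in this order overlapped except between Klf13 and Klf11 and between Klf3 and Klf12. In WT cells they overlapped except between Klf13 and Klf9 and between Klf11 and Klf2. Klf12 was thus beside the lowest genes in Itpkb-/- cells, at 0.934 to 1.87 per kb, and beside Klf9 and Klf3 in WT cells, at 5.12 to 5.63 per kb. Of the length-scaled signal of the 10 genes together, Klf12 made up 2.27%, 1.77% and 2.34% in Itpkb-/- libraries and 5.96%, 8.61% and 7.47% in WT libraries. Klf11 made up 12.7%, 7.95% and 10.9% in Itpkb-/- libraries and 4.85%, 6.56% and 7.08% in WT libraries. Klf13 made up 18.0%, 26.0% and 20.1% in Itpkb-/- libraries and 14.2%, 16.5% and 12.3% in WT libraries. Klf10 made up 25.1%, 18.6% and 25.5% in Itpkb-/- libraries and 29.2%, 27.3% and 31.9% in WT libraries. The shares of these 4 genes did not overlap between the genotypes, and a share moves with every gene in its sum. As normalized CPM, Klf12 alone among the 10 did not overlap, against 21.3% of all genes tested. Shares of this kind were not computed over all genes, so nothing is read from the number of genes whose shares were apart.

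**Figure D4:**
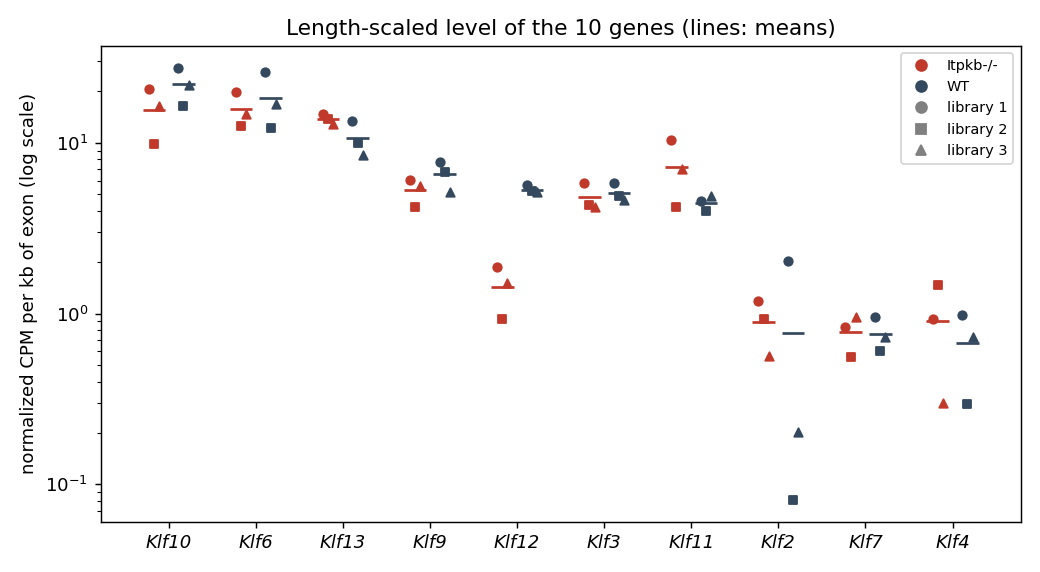
Normalized CPM per kb of exon (log axis) of the 10 genes in Itpkb-/- (red, left of each pair) and WT libraries (dark, right), in the order of the WT means; symbols give the library number and lines the means. Klf12 averaged 1.44 in Itpkb-/- cells, near the 3 lowest genes, and 5.31 in WT cells, among the middle genes.

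Libraries numbered 1 were high for many of these genes. WT library 1 held the highest value of 5 of the 10 genes and Itpkb-/- library 1 that of 3, and neither held the lowest value of any. The same count was not made over all genes, so nothing particular to Klf genes is read from it. These libraries also held the fewest reads of their genotype, 4024203 in WT library 1 and 4777870 in Itpkb-/- library 1. Some other genes were also highest of their genotype there, and others were not. Hba-a1, an alpha globin gene, stood at 43.1, 4.82 and 3.28 normalized CPM in Itpkb-/- libraries, against 92.8, 7.47 and 15.8 in WT libraries. Fosb, an AP-1 subunit of the early response, was at 9.80, 7.93 and 4.32 in Itpkb-/- libraries and at 24.9, 9.57 and 14.1 in WT libraries. Epor, the erythropoietin receptor gene, was lowest of its genotype in both libraries 1, at 24.8 in the Itpkb-/- library and 9.20 in the WT library. These 3 genes were picked for this comparison after their values had been seen, and their part in the Klf values was not tested.

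Of the Klf genes off the list, Klf1 stood at 27.4, 34.2 and 10.6 normalized CPM in Itpkb-/- libraries, against 17.9, 17.6 and 8.94 in WT libraries. Its log2 difference of 0.58 (SE 0.40) did not pass (limma adjusted p = 0.545), but passed with the pairs as blocks (limma adjusted p = 0.137) and without Itpkb-/- replicate 3 (limma adjusted p = 0.144), and with the granulocyte covariate the difference was 0.04. Klf5, a factor of intestinal and embryonic stem cells, was at 5.90 ± 2.38 in Itpkb-/- cells and 6.64 ± 3.30 in WT cells (SD, n = 3 each), with a log2 difference of -0.12. Klf15 and Klf17 did not pass the filter, with at most 0.931 and 0.155 normalized CPM in any library. None of the 4 tested genes off the list passed (limma), none had an unadjusted p under 0.05, and neither edgeR nor DESeq2 called any.

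The Sp proteins share the zinc fingers and the GC-rich sites of the Klf family. Sp1 was at 409 ± 90.0 normalized CPM in Itpkb-/- cells and 387 ± 63.4 in WT cells (SD, n = 3 each), and Sp3 at 134.1 ± 26.4 in Itpkb-/- cells and 126.2 ± 4.92 in WT cells. Sp2 was at 42.2 ± 7.04 in Itpkb-/- cells and 38.1 ± 0.847 in WT cells, and Sp4 at 48.6 ± 8.72 in Itpkb-/- cells and 53.3 ± 9.84 in WT cells. Their log2 differences were between -0.13 and 0.13. None of these 4 passed (limma), none had an unadjusted p under 0.05, and neither edgeR nor DESeq2 called any. Sp6 lay at or under 1.74 normalized CPM, and Sp5, Sp7, Sp8 and Sp9 had no read.

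Of 15 tested cofactors of Klf proteins 1 fell and 14 did not pass; the median log2 difference was 0.03. Ctbp1 and Sin3a, which the repressing Klf groups recruit, had log2 differences of 0.06 and 0.03.

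Klf2 and Klf4 are induced in endothelium through the kinases MEKK3 and ERK5 and the factors MEF2, and Klf2 in lymphocytes through Foxo1. None of the 14 tested genes of this path passed (limma), 1 had an unadjusted p under 0.05, and edgeR and DESeq2 each called 1. Over all 12008 genes tested, 1858 had an unadjusted p under 0.05 (limma), and 5.5% were called. The lowest p was that of Foxo1, at 44.9 ± 8.34 normalized CPM in Itpkb-/- cells and 70.5 ± 16.8 in WT cells (SD, n = 3 each), with a log2 difference of -0.63 (limma adjusted p = 0.162, and 0.0135 with the pairs as blocks). Mef2d had a log2 difference of -0.27 (limma adjusted p = 0.389).

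Of 9 tested genes described as targets of Klf2 or Klf4 in other cells, 2 rose, 2 fell and 5 did not pass. With the pairs as blocks 4 rose and 2 fell. Over all genes tested, 5.5% were called in the main fit and 18.1% with the blocks. The list was chosen with earlier results of these data known, so these counts are a description. Cdkn1a, a cyclin-dependent kinase inhibitor gene, rose to 18.4 ± 5.39 normalized CPM in Itpkb-/- cells, against 7.76 ± 4.17 in WT cells (SD, n = 3 each; log2 difference 1.23, limma adjusted p = 0.135). Cdkn1c, which encodes the inhibitor p57, had a log2 difference of -1.70 and Ccnd1, a D-type cyclin gene, of -0.83 (limma adjusted p = 0.0320 and 0.0948). S1pr1, the sphingosine phosphate receptor gene that Klf2 activates in T cells, had a log2 difference of -0.10 (limma adjusted p = 0.926). S1pr1 was picked after values were seen. It does not stand for the other genes of the list, of which 2 rose and 2 fell. The call of Cdkn1c was lost in 1, that of Ccnd1 in 3 and that of Cdkn1a in 4 of the 6 fits without 1 library. All 3 of these calls were lost without WT replicate 3, at adjusted p of 0.413 for Cdkn1a, 0.152 for Cdkn1c and 0.365 for Ccnd1. Nos3 and Edn1 had no read in any library.

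In the TGF-beta list, the pathway that induces Klf10 and Klf11, none of 9 tested genes passed (limma), 3 had an unadjusted p under 0.05, and neither edgeR nor DESeq2 called any. With the pairs as blocks 2 rose and 1 fell, where 18.1% of all genes tested were called. An unadjusted p under 0.05 was found for 1858 of all 12008 genes tested (limma). Ski and Skil, which encode inhibitors of Smad proteins, had log2 differences of -0.40 and 0.54 (limma adjusted p = 0.274 and 0.298, and 0.0445 and 0.0279 with the pairs as blocks). Of 10 tested glucocorticoid receptor genes and targets, a group to which Klf9 belongs, 1 rose: Per1, a clock gene, was at 87.9 ± 12.6 normalized CPM in Itpkb-/- cells and 56.7 ± 2.47 in WT cells (SD, n = 3 each; log2 difference 0.61, limma adjusted p = 0.0791). Its call was lost in 5 of the 6 fits without 1 library, with adjusted p up to 0.289. With the pairs as blocks 3 of the 10 rose and 2 fell. Over all genes tested, 5.5% were called in the main fit and 18.1% with the blocks.

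Of 19 tested early-response genes, the company in which Klf2, Klf4, Klf6 and Klf10 are often induced, 2 rose, 1 fell and 16 did not pass; the median log2 difference was -0.39. Socs3 and Nr4a1 rose by 1.75 and 1.46 on the log2 scale (limma adjusted p = 0.0358 and 0.0432), and Jun fell by 0.82 (limma adjusted p = 0.0452). These 3 calls were lost without WT replicate 3, at adjusted p of 0.206, 0.215 and 0.215. With the pairs as blocks 3 rose and 8 fell. Over all genes tested, 5.5% were called in the main fit and 18.1% with the blocks. Of 11 tested genes known from Klf1 and Klf3 in red cells 1 rose, the erythropoietin receptor gene Epor, by 0.89 on the log2 scale (limma adjusted p = 0.123). Its call was lost in 5 of the 6 fits without 1 library, with adjusted p up to 0.285, and with the pairs as blocks 3 genes rose and 3 fell.

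Some markers of cell types also differed between the genotypes. The lists are not separate: Tek counts for HSC and endothelium, Vwf for HSC and megakaryocytes, and Flt3 for multipotent progenitors and dendritic cells. Counts of calls are over the markers tested, and sums also include listed genes below the filter on low values. The main fit called 5.5% of all genes tested, and 3.24% as lower. The lists were chosen with earlier results of these data known, so the counts are a description. Of 15 HSC markers 7 fell and none rose, and their summed level was 2200 to 2939 normalized CPM in Itpkb-/- libraries and 3540 to 4235 in WT libraries. Of 10 markers of multipotent progenitors 4 rose and 1 fell, with sums of 603 to 871 in Itpkb-/- libraries and 369.5 to 457 in WT libraries. Of 10 megakaryocyte markers 4 rose, with sums of 1218 to 2252 in Itpkb-/- libraries and 949 to 1086 in WT libraries. Of 7 dendritic cell markers 3 rose, with sums of 494.5 to 613 in Itpkb-/- libraries and 383.5 to 411 in WT libraries. Of 8 endothelial markers 3 fell, with sums of 224 to 303 in Itpkb-/- libraries and 312 to 350.4 in WT libraries, while the defining endothelial gene Cdh5 was at most 0.524 and Sox17 had no read. Their part in the values of Klf12 was not tested.

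None of 16 granulocyte, 9 monocyte, 1 B cell or 4 T and NK cell markers passed (limma). An unadjusted p under 0.05 was found for 1, 1, 0 and 1 of them, edgeR called none, and DESeq2 called 2 granulocyte markers. Over all 12008 genes tested, 1858 had an unadjusted p under 0.05 (limma). With the pairs as blocks 15 of the 16 granulocyte markers, 2 monocyte markers and 1 T and NK cell marker rose. None of these lists had a marker that fell, and the block fit called 18.1% of all genes tested. Of 14 erythroid markers 1 rose and 1 fell, and with the blocks 3 rose and 4 fell. The summed levels of these lists overlapped between the genotypes.

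The genes whose profile over the 6 libraries was most like that of Klf12, by root mean square distance of log2(value + 1) after centring, were Plxna4, Veph1 and Mn1, at distances of 0.180, 0.215 and 0.216. Closeness to the profile of Klf12 includes its genotype difference. Similar differences in these genes thus follow from how they were picked and are no separate result. Plxna4, a semaphorin receptor gene, was at 9.82 ± 2.19 normalized CPM in Itpkb-/- cells and 30.8 ± 0.584 in WT cells (SD, n = 3 each; log2 difference -1.58, limma adjusted p = 0.00864). Mn1, a transcriptional coactivator gene, was at 3.89 ± 1.30 in Itpkb-/- cells and 12.2 ± 1.53 in WT cells (log2 difference -1.46, limma adjusted p = 0.0424), and its call was lost without WT replicate 3 (0.215). Veph1 was at 0.320 ± 0.281 in Itpkb-/- cells and 3.05 ± 0.751 in WT cells (SD, n = 3 each). It passed the filter on low values through the WT libraries alone, so its call is partly fixed by the filter. No fit without a WT library gave it a value, and of the 3 fits without an Itpkb-/- library its call was lost without replicate 2 (limma adjusted p = 0.214). The profiles closest to that of Klf11 were those of Slc12a9, Gpr21 and Slc20a2, at distances of 0.0720, 0.106 and 0.134, and none of them passed (limma adjusted p = 0.459, 0.501 and 0.415).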

How the data were processed

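Per the submitters' processing notes, reads went through CASAVA 1.8.2, cutadapt, TopHat2 2.0.8b, Partek and edgeR on build mm10, whereas the series design text names TopHat 1.4.1 and Partek 6.6. The deposited values are a signal: gene counts that the authors divided by 1 factor per library, close to CPM and called normalized CPM here. Every value was a whole multiple of the value of 1 read (100%, within 0.01 read), so reads were recovered from it. The NuGEN kit named in the labels' protocols amplifies small RNA inputs, here 1 to 5 ng, and does not mark strand.

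The members and gene lists were chosen with earlier results of these data known. The filter kept the 12008 genes that reached 1 normalized CPM in 3 or more libraries. On log2(value + 1), a scale that makes changes of low genes look smaller, limma 3.58.1 (R 4.3.3) was run with the trend option. Benjamini-Hochberg adjusted p-values were called at 0.15, the limit of the series design text. The edgeR 4.0.16 quasi-likelihood and DESeq2 1.42.0 tests on recovered reads were alternatives. The limma script was tested on simulated data with known changes. Named genes were all Klf and Sp genes, up to 4 called genes of each pathway list (the 2 lowest p where none was called), and the 3 closest profiles of the genes with the largest increase and decrease; Ctbp1, Sin3a, S1pr1, Nos3, Edn1, Cdh5, Sox17, Hba-a1 and Fosb were added after values were seen. Some genes that this rule names are counted but not reported here by name.

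The correlation across genes of deviations from the genotype mean was 0.268 to 0.296 for an Itpkb-/- and a WT library with the same number, and at most -0.0475 for those with different numbers. Deviations within a genotype cancel out for each gene, so positive values for same numbers force negative ones on average for different numbers. The negative values are thus no separate evidence of pairing. Since each of the 3 pairs correlated above 0.1, the numbers in the titles were treated as pairing the libraries in the block fit and in the differences by pair. The labels do not give the meaning of the numbers. The fit without the replicate block is the main one, so the main calls do not use this pairing. Exon lengths come from GENCODE M21 and join all annotated exons of a gene. They can exceed the length of the transcript present, so the order of genes by length-scaled level is approximate. Intervals and floors cover counting error only.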

Additional observations from a re-analysis of the deposited data

How the results depend on the processing

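The number of genes called, 661, was 2176 with the replicate block, 386 with the expression limit of the series design text applied before testing and also 386 under its full limits, 182 at an adjusted p of 0.05, 185 with the granulocyte mean as a covariate, 128 without both libraries numbered 2, and 64 (without WT replicate 3) to 839 (without Itpkb-/- replicate 1) when 1 library was left out. The number of the 10 Klf genes called stayed at 1, Klf12, in every fit except the replicate block (4) and the fit without both libraries numbered 1 (2), which was added after the values had been seen. Beyond Klf10, Klf11, Klf13, Klf1, Foxo1, Ski and Skil the block changed the calls of Itpkb (adjusted p = 0.0541), Fosb (0.0492) and Hba-a1 (0.0162), each from limma, and no other call of a gene whose values the text gives. When 1 library was left out, the log2 difference ranged from 0.03 to 1.05 for Klf2, -0.46 to -0.16 for Klf9, -0.75 to -0.22 for Klf10, 0.27 to 0.91 for Klf11 and 0.25 to 0.58 for Klf13, without a change of sign, and from -0.24 to 0.01 for Klf3, -0.10 to 0.66 for Klf4, -0.43 to 0.11 for Klf6, -0.12 to 0.21 for Klf7, -0.38 to 0.21 for Klf5, -0.09 to 0.11 for Klf8, -0.10 to 0.20 for Sp1, -0.08 to 0.18 for Sp3 and -0.29 to 0.03 for Sp4. Without both libraries numbered 2 it was -0.41 for Klf4 and 0.14 for Klf8, without both numbered 1 it was 0.26 for Klf5 and -0.09 for Sp3, and with the granulocyte covariate it was -0.10 for Klf4, 0.09 for Klf8 and 0.02 for Sp4. None of these reversed values passed the test, and the cause was not tested. Klf2 and Klf4 fell below the filter and gave no value without both libraries numbered 1, and neither they nor Klf7 were tested under the limit on average expression. Klf2 and Klf4 had 1 to 29 reads per library.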
